A study of Mus musculus with 6 samples.

Results

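Lipid-associated macrophage genes are the genes by which macrophages that feed on fat-cell lipid are usually recognised, and 10 of them were followed by symbol through 32285 genes in all 6 libraries: Trem2, Spp1, Lgals3, Gpnmb, Atp6v0d2, Dcstamp, Cd9, Lpl, Cd36 and Fabp5. The libraries held nuclei of subcutaneous adipose tissue, with 3 mice per genotype and 1 library per mouse. Control mice were GPSM1f/f, carrying a Gpsm1 gene flanked by loxP sites, and knockout mice were GPSM1ΔTreg, in which the genotype's name places the deletion in regulatory T cells. Which Cre driver was used is not given in the sources used here. Mice of both groups had been put on a high-fat diet at 7 weeks of age, for 12 weeks by the sample labels and for 5 to 12 weeks by the protocol. A sucrose gradient and a DAPI sort gave the nuclei, which went into 10x Genomics 3′ chemistry, so the counts are of nuclear RNA and the cytoplasm was not sampled.

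In obesity, macrophages gather around dying fat cells, take up their lipid and pass it to the lysosome. TREM2 is a myeloid receptor for lipids and lipoproteins that signals through its partner TYROBP, and the state of these cells depends on it. Several of the 10 genes also have long-known work outside macrophages: lipoprotein lipase (Lpl) is made by fat cells, while the fatty acid transporter CD36 and the fatty acid binding protein FABP5 are made by fat cells and capillaries.

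The deposited matrices held between 38857282 and 55342903 unique molecular identifiers (UMIs), with every control deeper than every knockout. After filtering, 56149 of 65162 barcodes were kept as nuclei, and any pair of libraries shared 17 to 35 barcodes. B-like, T-like and NK-like nuclei made up 5.11, 2.65 and 7.26% of the kept nuclei in flox controls 1, 2 and 3 and 52.7, 17.1 and 27.9% in knockouts 1, 2 and 3. An unnamed cluster of 3291 nuclei with low UMI counts, led by Cst6, came mostly from flox control 3. Gpsm1 itself read 38.2, 46.2 and 17.9 CPM (the gene's UMIs scaled to the UMI total of the same nuclei) in T-like nuclei of the controls and 21.3, 21.7 and 20.3 CPM in those of the knockouts. Its groups overlapped and rested on 26 UMIs in the controls. No source used here names the deleted exons, and the deletion is named for regulatory T cells alone, so 3′ counts of Gpsm1 check nothing about the labels.

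The 10 genes were kept out of the marker lists and out of the variable genes by which nuclei were clustered. Of 9148 macrophage-like nuclei, 3353 formed a cluster in which 8 of 11 other markers of lipid-associated macrophages were raised, among them Mmp12, Ctsk, Lipa and Plin2, and it is called LAM-like below. A further 4445 nuclei were resident-like, with all 8 of 8 markers such as Cd163, Lyve1 and F13a1. Monocyte-derived-like nuclei numbered 926, dividing macrophage-like nuclei 309, and nuclei with Timd4 and Marco 115. The word "like" marks groups that rest on markers alone. Because all groups come from clusters of the same nuclei, levels between groups are given as a description, with no test. Levels are compared within a gene only, since the genes differ in length.

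Trem2, Gpnmb and Spp1 are shown first by the bases before their start sites, since they are the receptor, the surface marker and the secreted ligand whose levels differed widely between macrophage states. The sequences are from RefSeq on GRCm38.p6, each 120 bases long on the + strand and ending at the base before the RefSeq start, at chr17:48346281-48346400 for Trem2, chr6:49036398-49036517 for Gpnmb and chr5:104434991-104435110 for Spp1. Capitals mark matches to 4 searched motifs.
Trem2: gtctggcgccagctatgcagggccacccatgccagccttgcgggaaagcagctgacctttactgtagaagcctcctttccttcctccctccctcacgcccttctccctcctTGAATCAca
Gpnmb: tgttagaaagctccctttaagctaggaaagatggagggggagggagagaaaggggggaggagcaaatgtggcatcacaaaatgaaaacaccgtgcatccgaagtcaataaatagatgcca
Spp1: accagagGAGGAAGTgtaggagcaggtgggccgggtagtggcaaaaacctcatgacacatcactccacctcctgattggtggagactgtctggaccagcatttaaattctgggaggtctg
The motifs were CACGTG and TCACGTG (the second contains the first), bound by the MiT/TFE factors that drive lysosomal genes, TGANTCA for AP-1, and GAGGAAGT of the myeloid factor PU.1. In TGANTCA the N stands for any base, which makes it a loose pattern for AP-1 sites. Both strands of the 250 bases before the start were searched in the 6 members that the promoter table holds, which are Trem2, Gpnmb, Spp1, Cd9, Lgals3 and Cd36. Trem2 held TGAATCA 9 bases before its start, and Spp1 held GAGGAAGT 113 bases before its start. The other 4 held none of these letters in that window. Among 32851 promoters of the same length, 6.02% held CACGTG, 3.13% TCACGTG, 6.75% TGANTCA and 2.44% GAGGAAGT, so a match is a description of these letters and not a binding site.

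Trem2, the lipid receptor (ENSMUSG00000023992; mm10 chromosome 17, 48346401 to 48354147, + strand), stood high in LAM-like and dividing macrophage-like nuclei and low elsewhere. Pooled over the libraries, its level was 327 CPM in LAM-like, 277 in dividing, 37.3 in resident-like and 25.9 in monocyte-derived-like nuclei. Over the 6 libraries the LAM-like level ran from 208 to 388 CPM and the dividing level from 108 to 413, so these neighbours did not differ beyond their spread. The resident-like level ran from 23.5 to 51.3 CPM and overlapped the monocyte-derived-like one, which ran from 6.06 to 53.3. LAM-like nuclei thus lay above resident-like nuclei in every library. They held 64.1% of all Trem2 UMIs of the kept nuclei, and macrophage-like nuclei as a whole held 81.3%.

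Spp1 and Lgals3 encode secreted proteins that act on other cells, osteopontin and galectin-3. Spp1 (ENSMUSG00000029304; mm10 chromosome 5, 104435118 to 104441050, + strand) was sparse: 41.9 CPM in LAM-like nuclei, 40.1 in dividing and 1.10 in resident-like nuclei, the last from 13 UMIs. Only 179 of 3353 LAM-like nuclei had a UMI of it, and the 10 richest nuclei held 37.2% of its 460 UMIs there. A Schwann-like cluster of 117 nuclei, seen at the finer clustering, reached 142 CPM, above the pooled level of any macrophage group. That level rested on 35 UMIs, 27 of them from knockout nuclei, and ran from 0 to 334 CPM over the libraries. Lgals3 (ENSMUSG00000050335; mm10 chromosome 14, 47367751 to 47386160, + strand) was broader. It read 1459 CPM in dividing, 1389.9 in LAM-like, 328 in monocyte-derived-like and 113 in resident-like nuclei. The ranges over libraries of dividing (1162 to 1563 CPM) and LAM-like nuclei (1242 to 1628 CPM) overlapped, while the monocyte-derived-like range (252 to 437 CPM) lay between them and the resident-like range (90.3 to 148 CPM) without touching either.

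Gpnmb and Atp6v0d2 mark macrophages with a loaded lysosome. Gpnmb, a membrane glycoprotein of lysosomes and the cell surface (ENSMUSG00000029816; mm10 chromosome 6, 49036546 to 49070929, + strand), read 1288 CPM in LAM-like, 1040.05 in dividing, 29.8 in monocyte-derived-like and 14.6 in resident-like nuclei. It was unevenly spread among LAM-like nuclei: 42.2% had a UMI of it, with 9.99 UMIs per positive nucleus and 185 in the richest. Atp6v0d2, a subunit of the proton pump that acidifies lysosomes (ENSMUSG00000028238; mm10 chromosome 4, 19876841 to 19922605, - strand), read 1184, 849.9, 39.2 and 22.0 CPM in the same order. Of the 10 genes it had the largest share of its UMIs in macrophage-like nuclei, 94.0%, and 82.8% lay in LAM-like nuclei. In both genes the LAM-like ranges over libraries (936 to 1465 CPM for Gpnmb and 996 to 1281 CPM for Atp6v0d2) overlapped the dividing ones and lay far above the resident-like ones (3.76 to 40.7 and 12.9 to 33.4 CPM).

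Dcstamp and Cd9 encode membrane proteins tied to cell fusion. Dcstamp, the fusion receptor of osteoclasts and giant cells (ENSMUSG00000022303; mm10 chromosome 15, 39745930 to 39760938, + strand), was highest not in LAM-like but in monocyte-derived-like nuclei, with 139.8 CPM against 57.5 in LAM-like, 34.6 in dividing and 0.762 in resident-like nuclei. The monocyte-derived-like range over libraries (78.9 to 203 CPM) lay above the LAM-like one (30.1 to 76.8 CPM). Cd9, a tetraspanin (ENSMUSG00000030342; mm10 chromosome 6, 125460266 to 125494791, - strand), read 317 CPM in LAM-like and 17.1 in resident-like nuclei. It was also present far from macrophages: 39.3% of its UMIs lay in ASPC-like nuclei, named for adipose stem and progenitor cells, against 22.0% in macrophage-like nuclei. The endothelial-like cluster led by Aqp1 reached 558 CPM, progenitors led by C7 565 and epithelial-like nuclei 617. Cd9 overlaps the opposite-strand genes Gm28809 and Gm26728, which are also in the files, and whether the counting used strand is not given in the sources used here.

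The 3 lipid-handling members had most of their UMIs outside macrophages. Lpl, the enzyme that frees fatty acids from lipoproteins (ENSMUSG00000015568; mm10 chromosome 8, 68880491 to 68907448, + strand), had 70.8% of its UMIs in adipocyte-like nuclei and 13.04% in macrophage-like nuclei. Its level was nevertheless higher in LAM-like nuclei, at 2159 CPM, than in adipocyte-like nuclei, at 1416. Monocyte-derived-like nuclei reached 1372 CPM and resident-like nuclei 252. Among progenitors, the cluster led by Pde11a had 1159 CPM and the one led by Sema3e 165. Cd36 (ENSMUSG00000002944; mm10 chromosome 5, 17781690 to 17888801, - strand) had 58.0% of its UMIs in adipocyte-like nuclei and its highest level, 8683 CPM, in the endothelial-like cluster led by Car4 and Gpihbp1. Among macrophage states it read 4309.8 CPM in LAM-like, 1907 in resident-like and 1181 in monocyte-derived-like nuclei. Fabp5 (ENSMUSG00000027533; mm10 chromosome 3, 10012548 to 10016607, + strand) reached 509.7 CPM in the endothelial-like cluster led by Aqp1 and 461 in that led by Car4, against 76.1 in LAM-like nuclei. Endothelial-like nuclei held 35.5% of its UMIs and macrophage-like nuclei 13.6%.

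**Figure D1:**
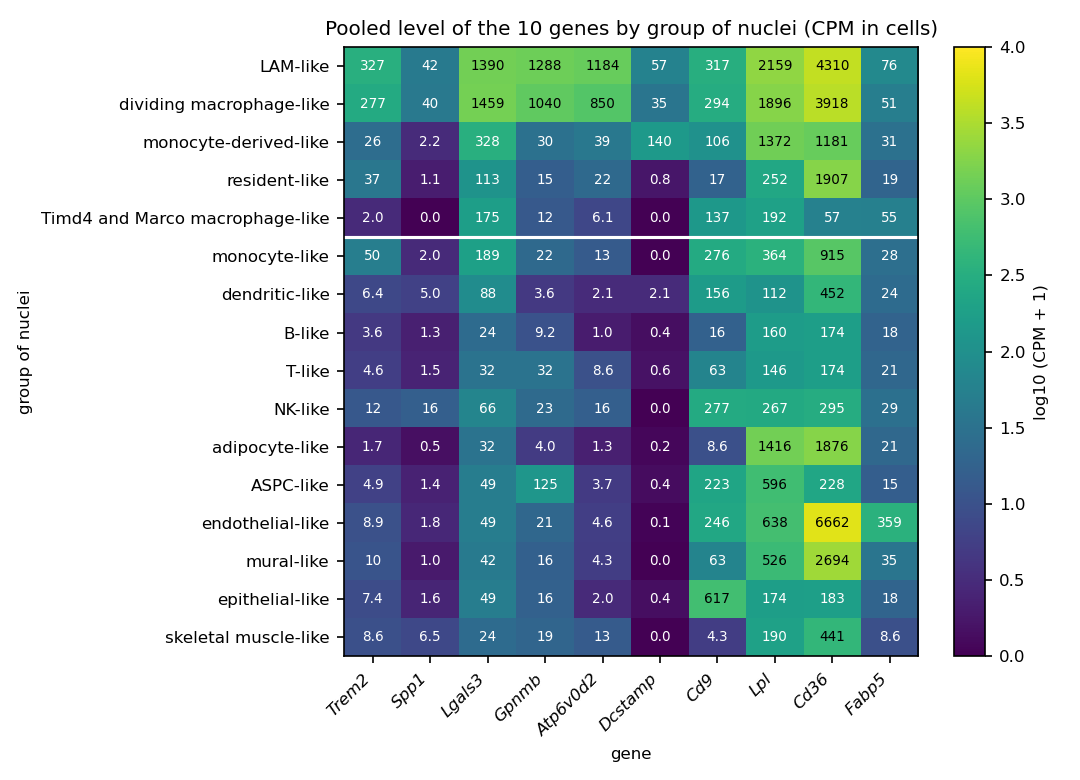
Level of each of the 10 genes (columns) in each group of nuclei (rows), pooled over the 6 libraries, printed as CPM and coloured by log10 of CPM + 1, with the macrophage states above the white line; colours are to be compared within a column. Trem2, Gpnmb, Atp6v0d2, Lgals3 and Spp1 are bright in the LAM-like and dividing rows, while Cd36 and Fabp5 peak in endothelial-like nuclei.

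**Figure D2:**
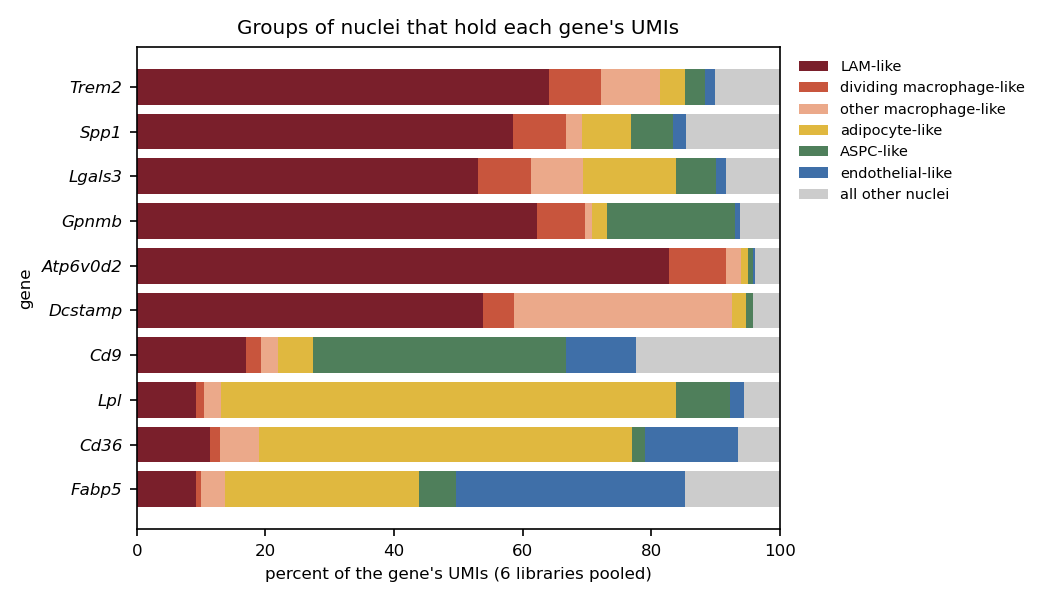
Share of each gene's UMIs (percent, 6 libraries pooled) found in each group of nuclei, 1 bar per gene. Macrophage-like nuclei hold from 69.2 to 94.0% of the UMIs of Atp6v0d2, Dcstamp, Trem2, Gpnmb, Lgals3 and Spp1 and 22.0% or less of those of Cd9, Lpl, Cd36 and Fabp5. Single libraries spread widely around the pooled shares, from 12.5 to 79.9% for Spp1 and from 43.4 to 81.2% for Gpnmb.

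Clustering more finely divided the LAM-like nuclei, and the 10 genes did not divide alike. At Leiden resolution 2 a cluster of 1791 nuclei led by Mmp12 kept the name by its markers, and one of 1593 nuclei led by Adgre1 and Slfn4 had 0 of 11 LAM markers raised. Markers were scored against the mean of the other macrophage clusters, which for the Adgre1-led cluster included the Mmp12-led one. A count of 0 thus does not mean that these nuclei lacked the markers. Gpnmb read 1962 CPM in the first and 234 in the second. Dcstamp read 92.4 and 2.84 CPM, and Lgals3 1944 and 519. Trem2 was nearer to even, with 416 and 188 CPM, as was Atp6v0d2, with 1469.6 and 718. Spp1 could not be ordered: pooled it read 37.0 CPM in the Mmp12-led and 49.0 CPM in the Adgre1-led cluster, but 158 of the 207 UMIs of the second came from knockout 2. In the controls alone Spp1 ran from 12.4 to 61.1 CPM in the Mmp12-led and from 11.9 to 22.6 CPM in the Adgre1-led nuclei. The group called LAM-like thus holds nuclei rich in Gpnmb and Dcstamp and nuclei with Trem2 and Atp6v0d2 but lower levels of that pair.

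Single nuclei were compared at a fixed depth. Each nucleus was thinned to 1000 UMIs, which left out 96 of 3353 LAM-like and 1606 of 7470 B-like nuclei. After thinning, 25.2% of LAM-like nuclei had a Trem2 UMI (95% Clopper-Pearson interval 23.8 to 26.8, counting error only), against 3.56% of resident-like and 0.409% of B-like nuclei, which should lack it. Gpnmb was seen in 30.7% (29.2 to 32.4) of LAM-like, 1.33% of resident-like and 0.853% of B-like nuclei. Atp6v0d2 was seen in 48.2% (46.4 to 49.9), 1.79% and 0.0853%. Without thinning the LAM-like shares were 51.2, 42.2 and 64.1% for Trem2, Gpnmb and Atp6v0d2, and the B-like ones 0.535, 1.16 and 0.161%, at median depths of 2817 and 1380 UMIs. Of thinned LAM-like nuclei 51.1% had at least 2 of the 4 genes Trem2, Gpnmb, Atp6v0d2 and Lgals3, and 6.29% had all 4. In dividing nuclei these shares were 51.6 and 5.23%, while at least 2 of the 4 were seen in 3.05% of monocyte-derived-like, 1.14% of resident-like and 0.102% of B-like nuclei.

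RNA carried over from other nuclei can set low levels, so each member was read against 8 macrophage markers (Adgre1, Csf1r, Mrc1, Cd163, Mertk, C1qa, C1qb and Cd68) in nuclei of other types. In adipocyte-like nuclei these markers stood at a median 0.609% of their macrophage-like level (range 0.255 to 24.0%, Mertk highest). Trem2 and Gpnmb stood at 1.04 and 0.695% of theirs there, within that range, and Atp6v0d2 at 0.237%, below it. In B-like nuclei the markers were at 2.22% (0.831 to 4.01%), with Trem2 at 2.19% and Gpnmb at 1.58%, within the range, and Atp6v0d2 at 0.193%, below it. Such levels were read as background, a reading that a range as wide as that in adipocyte-like nuclei does not test. The unnamed Cst6-led cluster had the markers at 18.3% and Trem2 at 34.6%, Gpnmb at 24.9% and Lgals3 at 27.6%.

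Gpnmb in ASPC-like nuclei was well above that background. The 8 macrophage markers stood at 1.43% (0.531 to 4.95%) of their macrophage-like level in ASPC-like nuclei, while Gpnmb stood at 21.5% and Cd9 at 137%. Trem2 (2.98%) and Atp6v0d2 (0.696%) lay within the markers' range, and Lgals3 (6.82%) lay above it. After thinning 10.0% of ASPC-like nuclei had a Gpnmb UMI (9.49 to 10.6%), and 23.0% before thinning at a median of 2799 UMIs. The level was uneven among progenitors: 325 CPM in the cluster led by C7, 189.9 in that led by Pde11a and 41.5 in that led by Sema3e. In the other direction, 8 adipocyte markers stood at 3.31% (0.789 to 18.2%) of their adipocyte-like level in LAM-like nuclei, where Lpl stood at 152% and Cd36 at 230% of theirs. Endothelial markers stood at 0.589% (0.168 to 9.79%) of their endothelial-like level in LAM-like nuclei, and Fabp5 at 21.2%.

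Genes with the profile most like each member over the 32 clusters were ranked by Pearson's r of log2(CPM + 5) among 14205 candidates, as a description in which clusters share libraries and depth. The 3 nearest to Trem2 were Vsig8 (r = 0.910), C5ar1 and C3ar1, the last pair being receptors for complement fragments. Nearest to Atp6v0d2 were AU022793 (r = 0.933), the macrophage elastase gene Mmp12 (r = 0.925) and Il1rn, and nearest to Gpnmb were Plau, Ctsk and Ahnak2. Lgals3 was followed by Mfsd12 (r = 0.906), Cd68 and Cd300lb, and Dcstamp by Slc9a4 (r = 0.915), 4930512J16Rik and Hyal5. Cd36 had Kctd12b (r = 0.839), Dusp3 and Pparg beside it, Lpl had Zfyve28 (r = 0.826), Neurl2 and Kctd12b, and Fabp5 had Aplnr (r = 0.887), Gm14221 and C1qtnf9. Cd9 was led by Stx3 (r = 0.811) and Spp1 by Gm46401 (r = 0.798). Among the members Trem2 ran closest to Atp6v0d2 (r = 0.924) and Lgals3 (r = 0.855), while Lpl and Cd9 had r = -0.11.

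The first question between genotypes was how many of these macrophages each library held. LAM-like nuclei were 46.9, 41.2 and 37.6% of macrophage-like nuclei in flox controls 1, 2 and 3 and 17.0, 36.5 and 19.7% for knockouts 1, 2 and 3. No knockout reached the controls, although knockout 2 lay just under flox control 3. The means were 41.9 ± 4.69% and 24.4 ± 10.6% (SD, n = 3; difference -17.5 percentage points; p = 0.1 by an exact permutation test, two-sided, whose smallest possible p is also 0.1). Dividing nuclei were 4.48, 4.72 and 3.81% of macrophage-like nuclei in the controls, against 1.30, 1.54 and 1.89% in the knockouts, again without overlap, on 254 and 55 nuclei. Nuclei with Timd4 and Marco went the other way when pooled, with 4 in the controls, against 111 in the knockouts. Their share of macrophage-like nuclei was 0.118 ± 0.204% and 4.01 ± 3.67% (SD, n = 3). The knockouts were thus uneven, and the difference was not tested. Macrophage-like nuclei were 25.1, 24.9 and 12.1% of kept nuclei in the controls, against 7.94, 15.9 and 12.4% in the knockouts. Here the groups overlapped (20.7 ± 7.42% and 12.1 ± 3.98%; SD, n = 3; difference -8.63 points; exact permutation p = 0.3). With B-like, T-like and NK-like nuclei left out of the denominator, chosen after seeing the data, that difference was -3.98 points (exact permutation p = 0.4), and with the Cst6-led cluster left out -10.5 (p = 0.1).

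**Figure D3:**
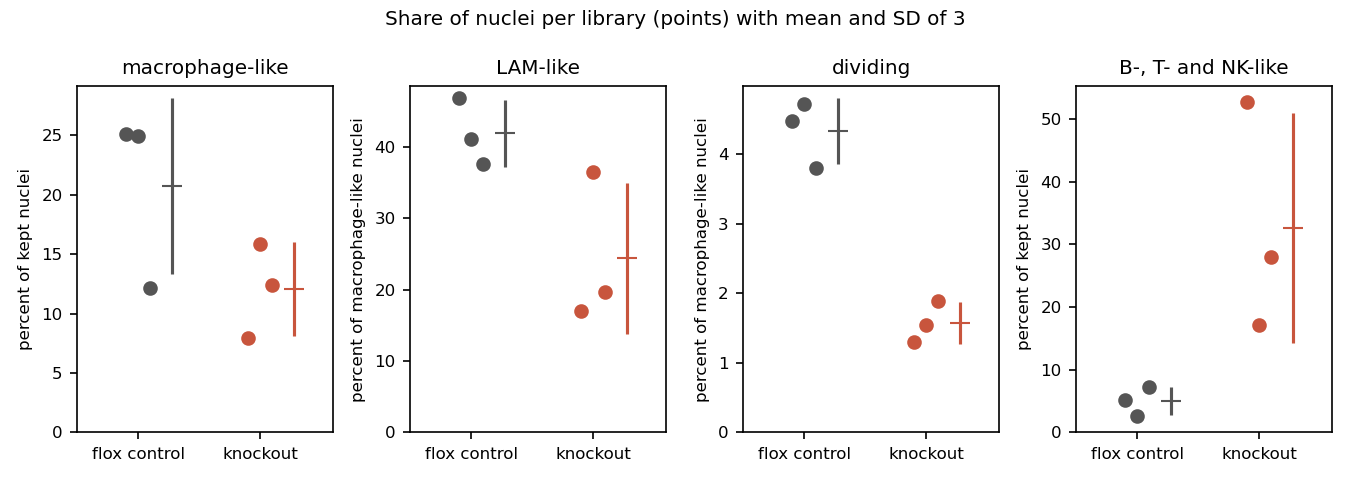
Share of nuclei in each library (points), with the mean and SD of 3 libraries beside them, for macrophage-like and for B-, T- and NK-like nuclei (percent of kept nuclei) and for LAM-like and dividing nuclei (percent of macrophage-like nuclei). The LAM-like share runs from 37.6 to 46.9% in the controls and from 17.0 to 36.5% in the knockouts.

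Across the whole tissue 8 of the 10 genes were lower in all 3 knockout libraries than in all 3 controls, but none passed the adjusted test without the replicate number as a block; with it, Lpl passed. Of all 19295 genes tested, 10.9% lay below the controls in every knockout library, and edgeR called 0.0415% in either direction. The fitted log2 fold changes of the 10 members were all negative, with a median of -1.01, against 0.01 over all genes, although the group means of Spp1 were both 3.26 CPM. In bulk sums of this kind, fewer cells of a type and less RNA per cell cannot be told apart. Trem2 read 44.4, 29.4 and 24.0 CPM in flox controls 1, 2 and 3 and 7.69, 17.1 and 6.70 CPM in knockouts 1, 2 and 3. Every knockout lay under every control, and knockout 2 was the highest knockout (log2 fold change -1.72, SE 0.412, adjusted p = 0.0686; edgeR's quasi-likelihood test with Benjamini-Hochberg adjustment over all genes, as throughout). Atp6v0d2 read 115, 80.0 and 72.0 CPM in control libraries, against 20.3, 53.3 and 26.0 in knockout libraries (log2 fold change -1.51, SE 0.382, adjusted p = 0.0727), and Gpnmb read 155, 106 and 102 CPM in control libraries, against 39.99, 90.4 and 47.2 in knockout libraries (log2 fold change -1.12, SE 0.334, adjusted p = 0.0954). In both, as for Trem2, knockout 2 stood apart from the other knockouts and nearest to the controls.

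Lgals3 read 195, 130.4 and 134 CPM in control libraries, against 57.0, 109 and 58.2 in knockout libraries across the whole tissue (log2 fold change -1.12, SE 0.297, adjusted p = 0.0779). Dcstamp read 9.66, 4.56 and 4.54 CPM in control libraries, against 3.35, 2.81 and 2.72 in knockout libraries (log2 fold change -1.17, SE 0.330, adjusted p = 0.0844). Its highest value was that of flox control 1, and the other libraries lay close together. In both genes every knockout lay under every control.

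Lpl read 1306, 1423 and 1097 CPM in control libraries, against 722, 1044 and 649 in knockout libraries across the whole tissue (log2 fold change -0.75, SE 0.198, adjusted p = 0.0761; with the block -0.77, adjusted p = 0.0368). Cd36 read 1988, 1921 and 2034 CPM in control libraries, against 1129, 1677 and 1486 in knockout libraries (log2 fold change -0.56, SE 0.145, adjusted p = 0.0736), and Fabp5 read 57.1, 39.5 and 44.2 CPM in control libraries, against 28.4, 32.8 and 19.1 in knockout libraries (log2 fold change -0.90, SE 0.227, adjusted p = 0.0727). The knockouts were below the controls in all 3 genes, with knockout 2 the highest knockout. Cd9 (log2 fold change -0.17, SE 0.233, adjusted p = 0.683) and Spp1 (log2 fold change -0.10, SE 1.02, adjusted p = 0.963) overlapped between the groups, with Spp1 at 8.39 CPM in knockout 2 and 0.482 and 0.897 in knockouts 1 and 3.

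How many members counted as changed across the whole tissue depended on the test and on 1 library. By edgeR 0 were called, with 8 at an unadjusted p under 0.05, where 28.4% of all genes had such a p. DESeq2 called 8, all but Spp1 and Cd9, and 12% of all genes with a p. Without knockout 2, edgeR called 8 as well, but these were all but Dcstamp and Cd9, and it called 17.4% of all genes (Trem2 -2.28, adjusted p = 0.0121; Spp1 -2.33, adjusted p = 0.0460). With the replicate number as a block, Lpl alone was called, beside 5.4% of all genes, 632 higher and 409 lower. Leaving out the B-like, T-like and NK-like nuclei gave 0 calls and Trem2 at -1.56 (adjusted p = 0.151). Leaving out the macrophage-like nuclei gave 0 calls among 9 members tested, with Gpnmb at -0.30 and Trem2 at -2.38 (adjusted p = 0.0705), and Lpl at -0.76. Of 4540 Trem2 UMIs in the controls, 3638 lay in macrophage-like nuclei and 358 in the Cst6-led cluster, which came mostly from flox control 3. In the knockouts that cluster held 8 Trem2 UMIs, and its part in the Trem2 value was not tested.

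In macrophage-like nuclei of all states, 9 of the 10 genes were lower in the knockouts, 6 of them with every knockout library below every control, and again none passed. The same non-overlap was found for 10.9% of the 12570 genes tested, and edgeR called 1.49% of them. The members' median was -0.75, against 0.00 over all genes. Trem2 read 241, 197 and 137 CPM in control libraries, against 84.0, 129.7 and 62.0 in knockout libraries (log2 fold change -1.06, SE 0.313, adjusted p = 0.180), the knockouts all under the lowest control. Gpnmb read 816, 602 and 690.1 CPM in control libraries, against 292, 479 and 223 in knockout libraries (log2 fold change -1.08, SE 0.276, adjusted p = 0.129), and Atp6v0d2 read 721, 574 and 595 CPM in control libraries, against 254, 452 and 264 in knockout libraries (log2 fold change -0.96, SE 0.223, adjusted p = 0.0942). In each, knockout 2 was again the knockout closest to the controls. Lgals3 read 948, 729.8 and 804 CPM in control libraries, against 454, 638 and 397 in knockout libraries (log2 fold change -0.73, SE 0.172, adjusted p = 0.0804). Cd36 came nearest to the threshold, with 3413, 2979 and 3054 CPM in control libraries, against 2174, 2387 and 2329 in knockout libraries (log2 fold change -0.45, SE 0.10003, adjusted p = 0.0591). Its knockouts were close to each other and all lower than the controls.

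Cd9 in macrophage-like nuclei read 240.2, 185 and 143 CPM in control libraries, against 104, 129.7 and 55.3 in knockout libraries (log2 fold change -0.98, SE 0.336, adjusted p = 0.249), also without overlap, while Lpl (log2 fold change -0.77, SE 0.262, adjusted p = 0.223) overlapped by a narrow margin, knockout 2 lying just above flox control 3. Dcstamp (-0.50, adjusted p = 0.521) and Fabp5 (-0.41, adjusted p = 0.645) overlapped. Spp1 spanned 0.770 to 53.7 CPM within the knockouts alone (log2 fold change 0.18, SE 1.38, adjusted p = 0.977), and its fold change was -3.82 without knockout 2. At an unadjusted p under 0.05 there were 7 members, against 15.3% of all genes tested. DESeq2 called 7 (Trem2, Gpnmb, Atp6v0d2, Lpl, Cd9, Lgals3 and Cd36), against 2.38% of all genes, and edgeR without knockout 2 called 6 (Trem2, Gpnmb, Atp6v0d2, Lpl, Lgals3 and Cd36), against 5.16%. B-cell markers moved with the groups here: their summed level was 269 to 318 CPM in control and 326 to 619 CPM in knockout macrophage-like nuclei, and their part in the result was not tested.

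Within LAM-like nuclei the differences were small. None of the 10 genes was called, 1 had an unadjusted p under 0.05, against 8.85% of all genes tested, and only Atp6v0d2 lay lower in every knockout library, against 7.4% of the 10414 genes tested and 0.567% called. The members' median log2 fold change was -0.16, against -0.01 over all genes. Atp6v0d2 read 1281, 1176 and 1186 CPM in control libraries, against 1175, 996 and 1112 in knockout libraries (log2 fold change -0.17, SE 0.104, adjusted p = 0.725). Trem2 read 388, 354 and 255 CPM in control libraries, against 361, 251 and 208 in knockout libraries (log2 fold change -0.33, SE 0.211, adjusted p = 0.753), with knockout 1 among the controls. Gpnmb read 1446, 1236 and 1289.8 CPM in control libraries, against 1465, 1099 and 936 in knockout libraries (log2 fold change -0.20, SE 0.144, adjusted p = 0.787), with knockout 1 the highest library of all. Lpl had the lowest unadjusted p, with 2343, 2358 and 1921 CPM in control libraries, against 1839, 2019 and 1447 in knockout libraries (log2 fold change -0.33, SE 0.125, adjusted p = 0.391), and its groups overlapped.

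For the other members within LAM-like nuclei, Lgals3 had a log2 fold change of -0.06 (SE 0.122), Cd36 -0.11 (0.115), Cd9 -0.49 (0.221), Fabp5 0.06 (0.267) and Dcstamp -0.14 (0.421). For Dcstamp the sign of the fit and of the means disagreed, with means of 55.6 CPM in controls and 58.7 CPM in knockouts. Spp1 read 27.4, 47.9 and 12.8 CPM in control libraries, against 4.25, 127 and 5.91 in knockout libraries (log2 fold change 1.004, SE 1.08, adjusted p = 0.906). Knockout 2 was the highest library and the other knockouts the lowest, and its level there rested on 194 UMIs in 50 of 545 nuclei, of which 10 nuclei held 67.0%. DESeq2 called 0 members and 0.366% of all genes. The finer clusters given above differed in their proportions too: 1421 control nuclei were Mmp12-led and 1059 Adgre1-led, against 370 and 534 knockout nuclei. Among the Mmp12-led nuclei alone Gpnmb was at 0.11, Atp6v0d2 at 0.20 and Trem2 at -0.05, with Trem2 means of 405 ± 90.0 CPM in controls and 405 ± 103 CPM in knockouts (SD, n = 3). The small differences of Gpnmb and Atp6v0d2 thus changed sign there, while Trem2 kept its sign with a smaller difference. Summed B-cell markers were 80.5 to 145 CPM in the controls, against 143 to 425 CPM in the knockouts, and their part was not tested.

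**Figure D4:**
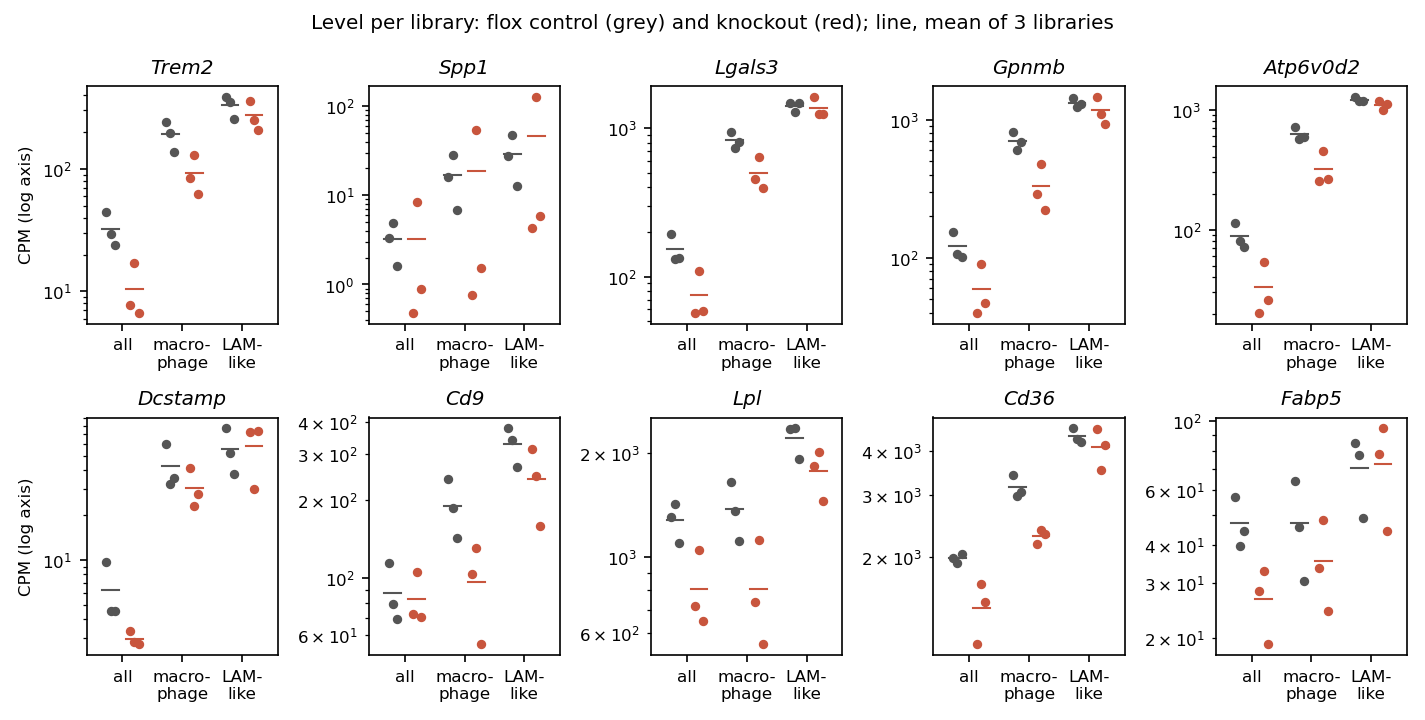
Level of each gene in each library (points; CPM on a log axis) in all kept nuclei, in macrophage-like nuclei and in LAM-like nuclei, with the mean of 3 libraries as a line, grey for flox control and red for knockout. For Trem2 the groups are apart in all nuclei and in macrophage-like nuclei and overlap in LAM-like nuclei.

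In the macrophage-like nuclei outside the LAM-like cluster, 1 member was called and 4 lay lower in every knockout library, where the shares over 11446 genes were 1.25% called and 9.23% lower throughout. Lgals3 fell, with a mean of 335 ± 55.5 CPM in controls and 201 ± 30.1 CPM in knockouts (SD, n = 3), and 398, 312 and 294 CPM in control libraries, against 194, 234 and 175 in knockout libraries (log2 fold change -0.73, SE 0.134, adjusted p = 0.0318). The groups did not overlap. Dividing nuclei were a smaller share in the knockouts, as given above. With them left out the fold change was -0.03 (adjusted p = 0.984), and in resident-like nuclei alone, with 136, 90.3 and 109.8 CPM in control libraries, against 101, 148 and 99.4 in knockout libraries, it was 0.05 (adjusted p = 0.981). The call was also lost at Leiden resolution 2 (-0.69, adjusted p = 0.0845) and without flox control 1, flox control 2, knockout 1 or knockout 3, where the adjusted p was 0.0802, 0.0771, 0.0882 and 0.13996. Gpnmb (-1.96, adjusted p = 0.0696), Atp6v0d2 (-1.19, 0.0991) and Trem2 (-1.21, 0.248) did not pass. DESeq2 and edgeR without knockout 2 each called 4 members, Trem2, Gpnmb, Atp6v0d2 and Lgals3, where they called 1.13 and 2.3% of all genes. Both of these fits kept the dividing nuclei in. With those left out, edgeR on every library called 0 of 9 members tested, and 5 genes higher and 2 lower of 11146. Dcstamp in monocyte-derived-like nuclei, its richest state, read 203, 123 and 194 CPM in control libraries, against 143, 82.9 and 78.9 in knockout libraries, with overlap between the groups and no test.

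In adipocyte-like nuclei 8 members were tested and Cd9 alone was called, where edgeR called 2.58% of 15763 genes. Cd9 fell, with a mean of 10.1 ± 0.865 CPM in controls and 6.11 ± 0.653 CPM in knockouts (SD, n = 3), and 11.0, 9.86 and 9.35 CPM in control libraries, against 6.55, 6.43 and 5.36 in knockout libraries (log2 fold change -0.80, SE 0.137, adjusted p = 0.0323). The groups did not overlap, and the share of all genes separated so is not given for these nuclei. The Cd9 level is 5.28% of the macrophage-like one, above the median of 0.609% for the 8 macrophage markers and inside their range of 0.255 to 24.0%. ASPC-like nuclei held 39.3% of Cd9 UMIs, more than macrophage-like ones. Summed ASPC markers read 301 to 354 CPM in control adipocyte-like nuclei, against 241 to 342 CPM in knockout ones. In ASPC-like nuclei they read 8986 to 12739 and 10043 to 11814 CPM. The part of carried-over ASPC RNA in Cd9 of adipocyte-like nuclei was not tested. The class was made up differently in the groups: the cluster led by Nrg4 and Pck1 held 1622 of 7011 control and 3597 of 6134 knockout nuclei, that led by Mageb18 2580 and 1113, and that led by Gabrr2 2809 and 1424. Cd9 differed among them. It read 13.4, 13.6 and 12.2 CPM in control Mageb18-led nuclei, against 12.2, 8.43 and 9.35 in knockout ones, and 9.56, 4.93 and 5.05 CPM in control Nrg4-led nuclei, against 1.83, 4.92 and 3.66. In Gabrr2-led nuclei it read 8.54, 6.21 and 7.92 CPM in controls, against 3.89, 5.98 and 4.62. Within clusters the change was not tested. The call was lost without flox control 1, flox control 2, knockout 2 or knockout 3, with adjusted p of 0.117, 0.0772, 0.0872 and 0.101. Summed macrophage markers in these nuclei were 136 to 155 CPM in the controls, against 127 to 232 CPM in the knockouts. Lpl read 1456, 1694 and 1329.8 CPM in control libraries, against 1302, 1435 and 1009.7 in knockout libraries (log2 fold change -0.33, SE 0.141, adjusted p = 0.211) and Cd36 1740.3, 1827 and 1878 CPM in control libraries, against 1757, 2075 and 2084 in knockout libraries (log2 fold change 0.05, SE 0.101, adjusted p = 0.802). Both overlapped between the groups. Gpnmb (-1.72, adjusted p = 0.0881), Trem2 (-1.57, 0.1504), Atp6v0d2 (-1.37, 0.138) and Lgals3 (-0.61, 0.142) did not pass, the first 3 at levels read as background above. DESeq2 called Gpnmb, Cd9 and Lgals3, and 5.22% of all genes. Without knockout 2 edgeR called 0 genes at all in this class, against 177 higher and 229 lower with every library.

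Progenitor and endothelial nuclei gave no member called. In ASPC-like nuclei, where edgeR called 0.393% of 13730 genes, 0 of 8 members passed. At an unadjusted p under 0.05 there were 4, against 11.2% of all genes, while DESeq2 called 4, against 0.774%. Gpnmb read 122, 118 and 107 CPM in control libraries, against 109, 172 and 117 in knockout libraries (log2 fold change 0.18, SE 0.164, adjusted p = 0.758), knockout 2 being the highest and the rest overlapping. ASPC-like nuclei thus held 12.2, 17.0 and 11.9% of all Gpnmb UMIs in the controls, against 38.3, 35.0 and 40.8% in the knockouts. Atp6v0d2 (-2.31, adjusted p = 0.108) and Trem2 (-2.13, 0.361) were at background levels there, and summed macrophage markers moved with the groups, at 79.9 to 129 CPM in control and 46.6 to 67.9 CPM in knockout ASPC-like nuclei. Cd36 (-0.93, 0.212) and Fabp5 (-1.11, 0.239) did not pass either. Fabp5 passed without flox control 3 (adjusted p = 0.0332), where 0.064% of all genes passed, and Atp6v0d2 without knockout 2 (adjusted p = 0.0483), where 0.541% did.

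In endothelial-like nuclei edgeR called 0.076% of 10522 genes, 0 of 6 members passed, 1 had an unadjusted p under 0.05, against 7.95% of all genes, and DESeq2 called 0, against 0.102%. That 1 was Lpl, with 975, 587 and 543 CPM in control libraries, against 536, 415 and 466 in knockout libraries (log2 fold change -0.60, SE 0.213, adjusted p = 0.491), every knockout below every control. Summed adipocyte markers read 922, 608 and 545 CPM in control endothelial-like nuclei, against 557, 492 and 616 in knockout ones. Flox control 1 was the highest library for both, and the part of carried-over adipocyte RNA was not tested. Cd9 read 268, 264 and 146 CPM in control libraries, against 273, 296 and 327 in knockout libraries (log2 fold change 0.38, SE 0.207, adjusted p = 0.712), every knockout above every control. The share of all genes separated in these ways is not given for endothelial-like nuclei, so both separations are description only. Across the whole tissue 10.9% of all genes lay below the controls in every knockout library. Cd36 read 6713, 6998 and 6671 CPM in control libraries, against 5900.4, 6042 and 7321 in knockout libraries (log2 fold change -0.10, SE 0.115, adjusted p = 0.889) and Fabp5 479, 374 and 263 CPM in control libraries, against 466, 321 and 208 in knockout libraries (log2 fold change -0.20, SE 0.325, adjusted p = 0.944), both with overlap. For Cd36 and Fabp5 the difference was thus within the spread between libraries. Whether the change differed between macrophage-like and adipocyte-like nuclei was tested with an interaction term. It called 1.28% of 16382 genes and 0 of the 10 members by edgeR, with 3 at an unadjusted p under 0.05, against 15.8% of all genes. Cd36 came first (macrophage-like minus adipocyte-like change -0.45, adjusted p = 0.139 by edgeR), followed by Gpnmb (0.68, adjusted p = 0.202) and Lpl (-0.43, adjusted p = 0.265).

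**Figure D5:**
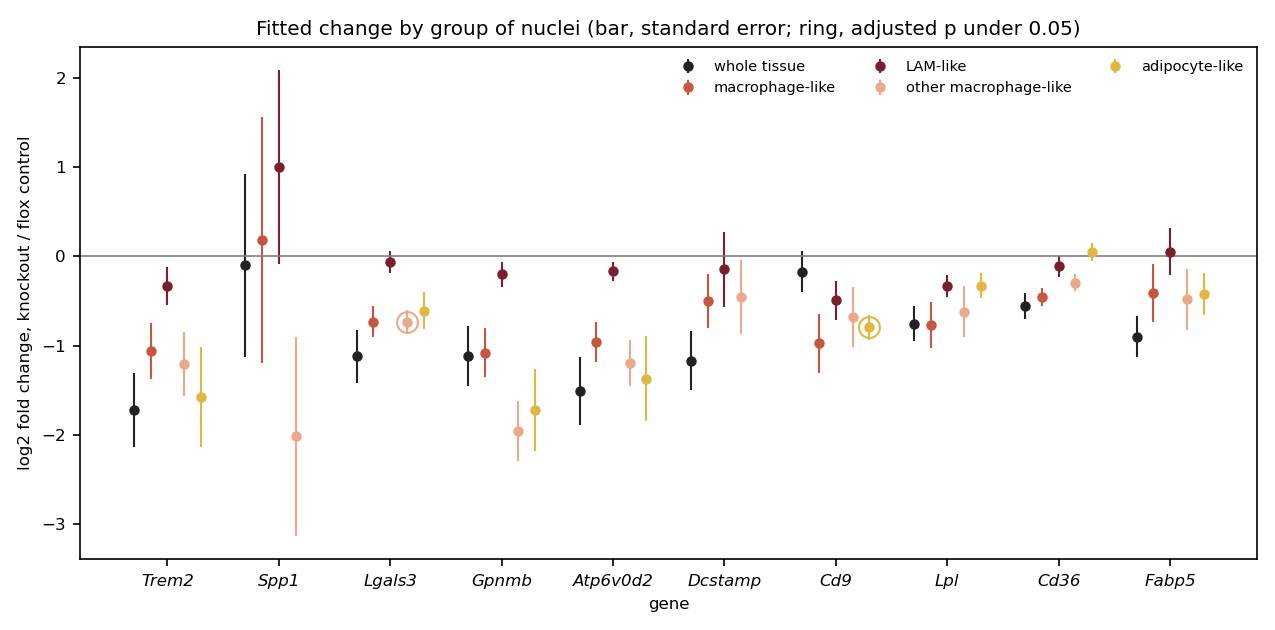
Fitted log2 fold change of each gene, knockout over flox control, in 5 sets of nuclei, with the standard error as a bar and a ring where the adjusted p passed. Only Lgals3 outside the LAM-like cluster and Cd9 in adipocyte-like nuclei are ringed, and LAM-like values lie nearer to 0 than macrophage-like ones except for Spp1.

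Partner genes of the 10 members were read from 7 lists with 70 genes. In macrophage-like nuclei 15 of 18 genes of the lysosome and proton pump list were lower in the knockouts, with a median of -0.25. Of the 18, 1 was called, where edgeR called 1.49% of all genes tested. Ctsk, the collagen-cleaving cathepsin K, fell, with 102 ± 21.1 CPM in controls and 53.1 ± 4.42 CPM in knockouts (SD, n = 3; log2 fold change -0.94, adjusted p = 0.0277 by edgeR). Lipa, the lysosomal acid lipase, had -0.55 (adjusted p = 0.0657) and the pump subunit Atp6v1a -0.48 (adjusted p = 0.0722). Ctsk, Lipa and Plin2 were among the markers by which the LAM-like cluster was named. Their values over all macrophage-like nuclei are thus not separate from that cluster's share, given above. Among receptors of osteopontin and partners of galectin-3, 5 of 8 tested were lower and 1 was called: Cd44, a receptor for hyaluronan and osteopontin, fell, with 759 ± 85.2 and 516 ± 47.3 CPM (-0.55, adjusted p = 0.0392). Of 12 genes of lipid uptake, storage and efflux 10 were lower and 0 called, with 6 at an unadjusted p under 0.05 where 15.3% of all genes had one; Pparg had -0.65 (adjusted p = 0.0617) and Plin2, the coat protein of lipid droplets, -0.46 (adjusted p = 0.198). TREM2 signalling ran the other way, with 8 of 9 tested higher, 0 called and a median of 0.14. Tyrobp, the partner of TREM2, had -0.15 (adjusted p = 0.877) and Syk 0.01. Of the other lists, 7 of 8 genes that handle LPL were lower, as were 7 of 9 of cell fusion and 2 of 4 MiT/TFE factors, and 0 were called in each. In LAM-like nuclei 0 genes of any list were called, and the lysosome list had 10 of 18 lower with a median of -0.04.

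Across the whole tissue 0 of the 70 were called by edgeR. The lysosome list had 16 of 18 lower, 9 of them at an unadjusted p under 0.05, with a median of -0.29. TREM2 signalling had 6 of 10 higher, all 6 at an unadjusted p under 0.05, with a median of 0.73. Of all genes 28.4% had such a p in either direction. The members that stood highest there were Clu (1.86), Hcst (1.72), Plcg2 (1.45) and Vav1 (1.12), of which Plcg2 also works in B cells and Vav1 in B and T cells. B-like, T-like and NK-like nuclei were the larger share in every knockout library, as given above, and their part in this was not tested. Other called partners lay outside macrophages. In adipocyte-like nuclei Apoe, the lipid carrier and TREM2 ligand, rose (0.92, adjusted p = 0.0427), Acp5 rose (0.66, adjusted p = 0.0346) and Itga9 fell (-1.20, adjusted p = 0.0207), in the class whose cluster makeup differed as given for Cd9. In endothelial-like nuclei Clu, another lipid carrier bound by TREM2, rose (0.98, adjusted p = 0.0372), and in ASPC-like nuclei Syk, which also works in B cells, rose (0.66, adjusted p = 0.0497). Summed B-cell markers read 8.28, 8.15 and 31.0 CPM in control ASPC-like nuclei, against 105, 19.3 and 55.1 in knockout ones, and 15.9, 3.38 and 79.3 CPM in control endothelial-like nuclei, against 174, 36.3 and 119. Both pairs of groups overlapped, and their part in the calls of Syk and Clu was not tested.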

How the data were processed

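The deposited matrices held UMI counts per gene and barcode for 6 libraries, made by the authors with Cell Ranger 7.1, per the submitters' processing notes, which name the builds mm10 and GRCh38. All 32285 genes were mouse genes, and whether intronic reads were counted is not given in the sources used here. Barcodes under 500 genes or over 5% mitochondrial UMIs were dropped, and the barcodes with the highest scrublet scores were removed at 0.8% per 1000 barcodes. Library depth ran from 38857282 to 55342903 UMIs.

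In scanpy 1.11.5, 3000 variable genes, 40 principal components, 20 neighbours and Leiden clustering at resolution 1 gave 32 clusters, 5 of them unnamed. A cluster was named where at least 3 markers and at least 33% of a list exceeded the remaining clusters' mean level by 2-fold or more, after adding 5 CPM, and no unrelated list reached 40%; the percentages and the related lists were settled after seeing the markers. For macrophage states the remaining clusters were the other macrophage-like clusters. The members and lists were chosen with earlier results of these data known.

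UMIs were summed per library and group and tested with edgeR 4.0.16 (R 4.3.3; robust quasi-likelihood fit, TMM, filterByExpr) at a Benjamini-Hochberg adjusted p under 0.05; DESeq2 1.42.0 was an alternative. The scripts were tested on simulated data. Shares were compared by exact two-sided permutation. All 10 members were named, and of each partner list up to 4 genes: those past the threshold, then the most abundant; Lipa, Atp6v1a, Pparg, Plin2, Tyrobp, Syk, Clu, Hcst, Plcg2 and Vav1 were in part named after their values were seen. The labels give controls and knockouts the same replicate numbers but do not say that a number marks a shared litter or day. In the whole tissue, the deviations of same-numbered libraries had correlations of 0.411, 0.135 and 0.102. Flox control 2 deviated most with knockout 3, so the numbers do not clearly mark pairs. The fit with the block is therefore given there beside the fit without it. In the other 6 groups of nuclei not every correlation was over 0.1. Gene positions come from GENCODE vM21 (mm10), where 99.6% of the gene identifiers were found. Alternatives that leave out groups of nuclei were chosen after seeing the data.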

Additional observations from a re-analysis of the deposited data

How the results depend on the processing

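Of 659 values of 53 member fold changes under the alternatives, 570 kept direction and side of the threshold, 52 passed it newly, 10 lost it and 27 reversed; the causes were not tested beyond what each alternative leaves out. Counts of members called moved as follows. DESeq2 called 8 in whole tissue, 7 in macrophage-like, 4 in other macrophage-like, 3 in adipocyte-like and 4 in ASPC-like nuclei. Without the filter on low counts edgeR called 1 in macrophage-like, 2 in LAM-like (Lpl and Cd9) and 3 in other macrophage-like nuclei. It called 3 in endothelial-like and 1 in ASPC-like nuclei, and 1 in the interaction. Over all genes that setting called 356 higher and 417 lower of 22284 in macrophage-like and 180 and 137 of 20229 in LAM-like nuclei. In other macrophage-like nuclei it called 402 and 407 of 21276, and in endothelial-like nuclei 104 and 115 of 20665. ASPC-like nuclei had 175 and 211 of 23380, and the interaction 220 and 365 of 25559. Leaving out each library gave 0 to 8 in whole tissue, 0 to 6 in macrophage-like, 0 to 4 in other macrophage-like, 0 to 1 in adipocyte-like and 0 to 1 in ASPC-like nuclei. In other macrophage-like nuclei the count was 0 at Leiden resolution 2, with dividing nuclei left out and in resident-like nuclei alone. With the replicate block, the whole tissue had 1 call, Lpl at -0.77, and the block moved no other count of members.

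The reversals, given as log2 fold changes, included 1 member that had been called, Lgals3 in other macrophage-like nuclei (-0.73, adjusted p = 0.0318 by edgeR). In whole tissue, Spp1 was 0.30 without flox control 2, 0.41 without knockout 1, 0.34 without knockout 3 and 0.12 without macrophage-like nuclei (-2.33 to 0.41 without 1 library), and Cd9 was 0.059 without flox control 1 and 0.067 without macrophage-like nuclei (-0.39 to 0.059 without 1 library). In macrophage-like nuclei, Spp1 was -0.52 with the replicate block, -0.14 without flox control 3 and -3.82 without knockout 2 (-3.82 to 0.73). In LAM-like nuclei at Leiden resolution 2, Gpnmb was 0.11, Atp6v0d2 0.20, Spp1 -0.40, Lgals3 0.24, Cd36 0.079 and Dcstamp 0.18, and Dcstamp was 0.012 by DESeq2. Without 1 library, LAM-like Spp1 ran from -2.53 (knockout 2) to 1.47, Lgals3 from -0.20 to 0.022, Fabp5 from -0.28 to 0.29 and Dcstamp from -0.43 to 0.35. In resident-like nuclei alone that Lgals3 value was 0.049 and Cd36 was 0.15. Without 1 library, Gpnmb in ASPC-like nuclei ran from -0.050 (knockout 2) to 0.31 and Fabp5 in endothelial-like nuclei from -0.50 to 0.041.

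Over all genes, edgeR called 1 higher and 7 lower in whole tissue, against 1749 and 1560 by DESeq2, 60 and 193 without the filter, 632 and 409 with the block, 61 and 152 without the Cst6-led cluster and 1925 and 1528 without knockout 2. In macrophage-like nuclei it called 67 and 120, against 276 and 254 by DESeq2 and 24 and 14 with the block. Library totals in place of TMM moved the whole-tissue median from 0.01 to 0.10, and in adipocyte-like nuclei the split of higher and lower calls from 177 and 229 to 329 and 158, and without knockout 2 there were 0 and 0. The LAM-like share difference ran from -13.8 to -23.6 points without 1 library and was -14.3 at Leiden resolution 2 and -18.0 with doublets kept. Spp1 rests on few UMIs, and each test on 3 libraries a group.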
